A study of Mus musculus with 8 samples.

Results

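The neuronal genes Tubb3, Nefl, Nefm, Stmn2, Elavl3, Elavl4, Sox2, Phox2a and Myt1, best known from neurons and their progenitors, were followed in RNA of whole mouse embryo hearts. The members were all 14 probe sets that the array annotation assigns to these 9 genes, of 22690 probe sets and 12393 singly named genes on the array. Hearts were taken at E10.5 from 4 Dbh-/- embryos (KO 1 to KO 4), which carry no intact gene for dopamine beta-hydroxylase, the enzyme that turns dopamine into noradrenaline, and from 4 Dbh+/+ embryos (WT 1 to WT 4). No agent, transgene or Cre is named in the labels. The strain and the kind of Dbh allele are not given in the sources used here. Each Affymetrix Mouse 430A 2.0 array held total RNA of 1 heart, so each replicate is a separate embryo, and the 4 hearts per genotype limit the precision. Viability and heart rate had been checked by ultrasound before isolation, per the labels. The sample titles carry a further number that the labels do not explain: 570 for WT 1, 569 for WT 2, KO 1 and KO 2, and 541 for WT 3, WT 4, KO 3 and KO 4.

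Neurons are set apart by a cytoskeleton of beta-III tubulin and neurofilaments, by stathmins that loosen microtubules in growing axons, and by RNA-binding proteins of the Elavl (Hu) family that stabilise neuronal transcripts. Progenitors of the nervous system carry Sox2, and Myt1 and Phox2a act as the first neurons form. In the embryo, the neurons of the heart come mainly from migrating neural crest cells, and many neuronal genes are held silent in other cells by the repressor Rest. A whole heart mixes muscle, endocardium, mesenchyme and incoming cells, so more cells of a type and more RNA per cell cannot be told apart in any value given here.

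The values are MAS5 signals, a linear brightness per probe set, each with a call of Present, Marginal or Absent. The share of Present calls ran from 65.2% to 71.6% over the arrays, and 95% of the Absent probe sets of an array lay below a signal of 13.7 to 18.03. A probe set was tested when it was Present in at least 3 of the 8 hearts, which left 16292. Of the 14 member probe sets 10 were tested, covering 8 genes (all but Phox2a), and Sox2 and Myt1 met this filter with 1 WT and 3 KO hearts each. Elavl3 (1435871_at) met it with the 4 hearts of title number 541 alone. The median log2 signal of the tested probe sets ran from 6.85 to 7.47 over the arrays. The targeted gene could not check the genotype labels, because the Dbh signal ranged from 0.222 to 10.9, with an Absent call in each of the 8 hearts. The defining markers of the labelled tissue were Present in 8 of 8 hearts, namely the muscle genes Tnnt2 (3640 to 6378), Myh6 (2029 to 5654) and Actc1 (3236 to 5614) and the cardiac transcription factor Nkx2-5 (18.1 to 61.5). WT 3 stood apart: it was the only heart with a strong signal for the liver genes Afp (3396) and Hnf4a (912.7), and the slow myosin gene Myh7 was at 305.9 there against 2431 to 4836 elsewhere. For many calls of named genes, but not for all, the value without WT 3 is given too.

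Upstream sequence was at hand for 6 of the 9 genes, as 11 windows of 250 bases before to 50 bases after a RefSeq transcript start (build GRCm38.p6); Nefl, Nefm and Stmn2 have no window in that table. Windows of 3 genes are printed to show how unlike the starts of these genes are: Sox2, a member with a large difference inside title number 541, Elavl3, whose signals were highest in the same hearts, and Tubb3, whose signals were not. Capitals mark E-boxes (CANNTG, a palindrome), the letters bound by the helix-loop-helix factors that drive neuronal differentiation.
Sox2, chr3:34649745-34650044, plus strand: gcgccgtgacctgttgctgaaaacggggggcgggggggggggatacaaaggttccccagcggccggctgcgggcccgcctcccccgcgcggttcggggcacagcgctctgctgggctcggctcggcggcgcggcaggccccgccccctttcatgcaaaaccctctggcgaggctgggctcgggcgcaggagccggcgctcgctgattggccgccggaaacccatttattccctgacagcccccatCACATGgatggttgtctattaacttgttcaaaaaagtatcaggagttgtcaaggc
Elavl3, chr9:22051974-22052273, minus strand: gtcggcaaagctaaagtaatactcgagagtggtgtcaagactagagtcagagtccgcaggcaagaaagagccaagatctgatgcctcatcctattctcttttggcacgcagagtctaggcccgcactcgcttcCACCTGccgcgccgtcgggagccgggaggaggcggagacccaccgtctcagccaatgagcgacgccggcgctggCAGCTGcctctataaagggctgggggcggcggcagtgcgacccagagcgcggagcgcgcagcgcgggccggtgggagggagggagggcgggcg
Tubb3, chr8:123411303-123411602, plus strand: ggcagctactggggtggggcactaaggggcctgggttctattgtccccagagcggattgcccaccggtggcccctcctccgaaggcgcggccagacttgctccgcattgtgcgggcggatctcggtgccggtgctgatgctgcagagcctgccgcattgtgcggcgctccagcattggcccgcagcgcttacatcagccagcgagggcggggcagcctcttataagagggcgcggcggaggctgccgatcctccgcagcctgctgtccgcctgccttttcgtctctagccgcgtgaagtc
The Sox2 window held 1 E-box, the Elavl3 window 2 and the Tubb3 window 0, where 72.3% of 32851 windows of the same length in the table held at least 1. The CAGCTG form, which is 1 of the E-box spellings and was counted again on its own, lay 43 bases before the Elavl3 start and is held by 16.3% of windows. The Elavl3 window also had TATAAA 33 bases before the start, as 13.6% of windows do at some position on either strand. The Tubb3 window held 2 copies of CATTGT, a core that Sox proteins bind, which 12.6% of windows hold on either strand. GGGCGG, the core bound by Sp1, occurred 2 times in each of these 3 windows and in 35.7% of all windows on either strand. The left and right parts of the Rest element, TTCAGCACC and GGACAGCGC, were searched on both strands and were in none of the 11 member windows, against 0.371% and 0.405% of all windows. These letters are descriptions of short windows, and a missing match says nothing of sites elsewhere in a gene.

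Among the cytoskeletal genes, the neurofilament genes Nefl and Nefm and the stathmin Stmn2 had their highest signal in KO 4, while Tubb3 had no such pattern. Tubb3 (1415978_at), the beta-III tubulin of young neurons, had signals of 37.9, 42.8, 10.8 and 18.3 in WT 1 to WT 4 and 23.9, 32.2, 31.1 and 28.2 in KO 1 to KO 4. The highest and the lowest heart were both WT, the KO range lay inside the WT range, and only WT 3 was called Absent. The WT mean was 27.4 ± 15.3 and the KO mean 28.8 ± 3.73 (SD, 4 hearts each).

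Nefl (1426255_at), the light neurofilament chain on which the others assemble, was Present in all 8 hearts. Its signals were 111, 69.6, 75.4 and 63.6 in WT 1 to WT 4 against 71.8, 83.5, 115 and 229 in KO 1 to KO 4. KO 4 was highest, KO 3 and WT 1 were nearly level behind it, and the genotypes overlapped (WT mean 79.8 ± 21.2, KO mean 124.8 ± 72.0). Nefm (1422520_at, under its older symbol Nef3 in the deposited annotation) codes for the medium chain. WT 1 to WT 4 gave 5.71, 9.18, 10.8 and 5.67 for it, and KO 1 to KO 4 gave 0.157, 12.7, 67.2 and 95.3. KO 3 and KO 4 stood far above all other hearts, KO 1 was the lowest of the 8, and the groups overlapped (7.84 ± 2.57 in WT, 43.8 ± 45.0 in KO). Nefl and Nefm are neighbouring protein-coding genes in the reference gene table, with 1 gene that does not code for protein between them, and their highest hearts were the same, although Nefl had a clear signal everywhere and Nefm was called Absent in WT 2, WT 4 and KO 1.

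Stmn2 (SCG10), which keeps microtubules dynamic in growth cones, had 2 probe sets made from the same source sequence. The better measured one, 1423281_at, read 35.3, 28.2, 18.98 and 7.65 in WT 1 to WT 4 and 13.7, 54.3, 47.1 and 102 in KO 1 to KO 4. Here KO 2, KO 3 and KO 4 exceeded every WT heart, while KO 1 was below 3 of the 4 WT hearts and was called Absent with WT 4. The other, 1423280_at, read 18.2, 22.3, 7.78 and 6.77 in WT and 4.65, 7.11, 25.3 and 34.7 in KO, and was Present only in KO 3 and KO 4, so it was not tested. Both probe sets put KO 4 highest and agree that WT 4 and KO 1 were low, but they differ on KO 2.

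The RNA-binding genes Elavl3 (HuC) and Elavl4 (HuD), which mark neurons from the time they leave the cell cycle, were low, and each had 3 probe sets. Elavl3 was measurable with 1435871_at alone, at 12.6, 20.6, 20.8 and 19.3 in WT 1 to WT 4 and 7.18, 8.83, 29.7 and 58.2 in KO 1 to KO 4. KO 3 and KO 4 were the highest hearts and KO 1 and KO 2 the lowest, so the WT values lay inside the KO range. The other Elavl3 probe sets, 1452524_a_at and 1455484_at, were Absent in 8 of 8 hearts with signals of at most 11.004 and 9.89 and were not tested; 1455484_at was made from the same source sequence as 1435871_at and did not show its pattern.

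For Elavl4, 1428741_at stayed within a narrow band, with 9.55, 13.7, 10.4 and 15.1 in WT and 15.3, 12.1, 17.4 and 14.7 in KO, all called Present. The probe set 1452894_at, which the deposited annotation leaves without a symbol, gave 47.0, 26.8, 26.6 and 55.3 in WT and 31.4, 40.2, 53.6 and 68.6 in KO. The third, 1450258_a_at, gave 16.8, 6.74, 12.5 and 17.97 in WT and 9.92, 21.3, 31.3 and 23.98 in KO, with WT 2 and KO 1 Absent. In all 3 the genotypes overlapped, and the highest heart was KO 3 in 2 of them and KO 4 in the other.

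Of the 3 transcription factors, Sox2 and Myt1 had clear signals in some hearts and Phox2a did not. Sox2 (1416967_at), a factor of neural progenitors that is also found in foregut endoderm, read 46.6, 5.49, 6.599 and 8.19 in WT 1 to WT 4 and 8.59, 30.1, 93.5 and 62.1 in KO 1 to KO 4. KO 3 and KO 4 were highest, WT 1 came next, and the other WT hearts and KO 1 were not called Present. The genotypes overlapped through WT 1 and KO 1 (16.7 ± 19.97 and 48.6 ± 37.1).

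Myt1 (1422773_at), a zinc finger factor that promotes neuronal differentiation, was the only one of the 10 tested member probe sets whose genotypes did not overlap. WT 1 to WT 4 read 12.9, 10.4, 14.2 and 20.9, and KO 1 to KO 4 read 28.6, 36.4, 29.4 and 80.7. All 4 KO hearts lay above the highest WT heart (14.6 ± 4.48 against 43.8 ± 24.9), but the calls did not follow the signals, since KO 2 was Absent at 36.4 and WT 1 was Present at 12.9. Of all 16292 tested probe sets, 0.209% had every KO heart above every WT heart. An exact two-sided permutation test over 70 assignments gave p = 0.0286 for Myt1 on the log2 scale, unadjusted, which is the smallest p that 4 against 4 hearts can give. Myt1 met the filter only with KO hearts counted, so it was tested through the genotype where it was high. It also stood out among 10 tested probe sets of chosen genes, so this p is a description. Phox2a (1418620_at), which autonomic neurons need and which acts upstream of Dbh, was Absent in 7 hearts, with signals of 1.92, 5.62, 4.84 and 8.93 in WT and 7.79, 0.810, 3.92 and 15.7 in KO. It was called Present in KO 4 alone and was not tested.

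**Figure D1:**
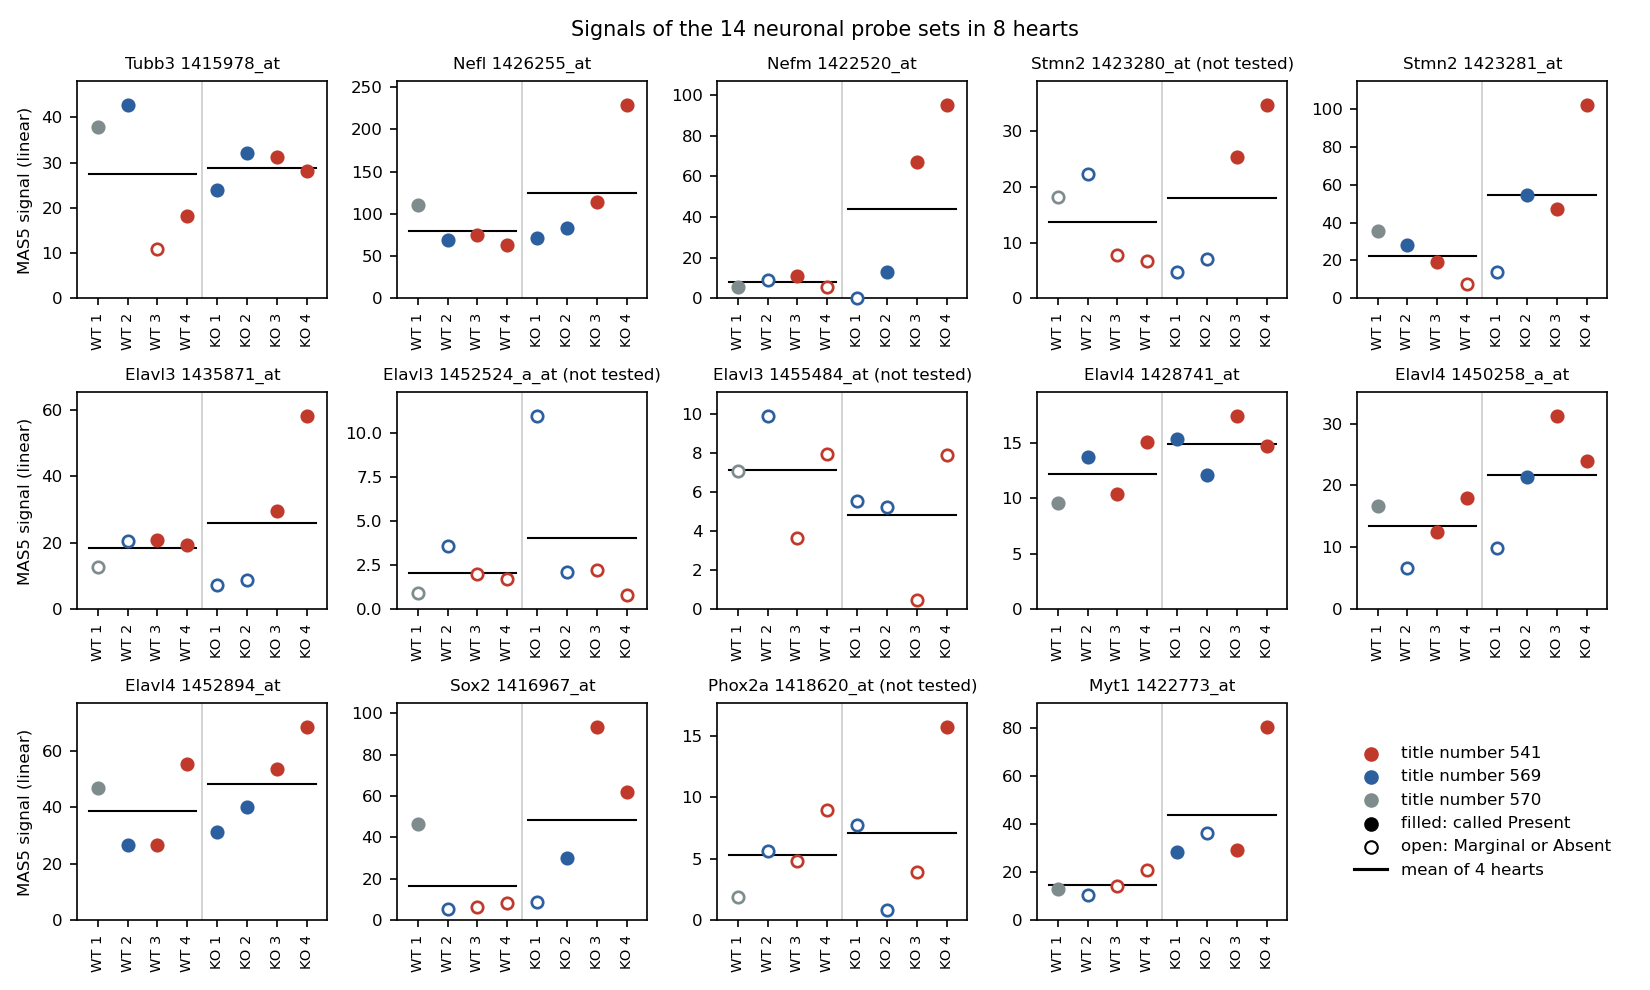
MAS5 signal (linear axis, a separate scale per panel) of the 14 member probe sets in the 8 hearts. Filled points were called Present, open points Marginal or Absent, colours give the number in the sample title, and bars are means of 4 hearts; Nefm, Sox2 and Elavl3 (1435871_at) are highest in KO 3 and KO 4, while Tubb3 is highest in WT 2.

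The study's comparison asks which transcripts differ between hearts without and with Dbh. None of the member genes passed it as deposited. With title number as a block Sox2 (1.45, adjusted p = 2.33e-04 by limma) and Nefm (1.11, adjusted p = 0.0120) passed, and after quantile normalization with the block neither did (1.39 and 1.09, adjusted p = 0.970 for both). The log2 difference in signal, KO minus WT, was above 0 for all 10 tested member probe sets, as it was for 52% of all tested probe sets. Differences are on the log2(signal + 16) scale, which understates changes of low signals. It was 0.94 ± 0.35 (SE) for Nefm, 0.93 ± 0.34 for Sox2, 0.90 ± 0.26 for Myt1 and 0.76 ± 0.31 for Stmn2 (1423281_at), with unadjusted p-values from limma of 0.0114, 0.00976, 0.00138 and 0.0195. These 4 of 10 probe sets had an unadjusted p under 0.05 with KO higher, against 0.908% of all tested probe sets, and 0 of 10 had one with KO lower, against 0.424%. Such counts are descriptions, since the members were chosen with earlier results known. Sox2 and Myt1 met the filter only with KO hearts counted, so their p-values between genotypes, under the alternatives too, are also descriptions. Nefl differed by 0.46 ± 0.31, the 3 Elavl4 probe sets by 0.13 to 0.34, Elavl3 by 0.13 ± 0.28 and Tubb3 by 0.11 ± 0.26.

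By limma with Benjamini-Hochberg adjustment over all 16292 probe sets, 0 of the 10 member probe sets were called, and the share of all probe sets called was 0%, with an adjusted p of 0.99998 for each member. The median difference over the 8 tested genes was 0.61 against 0.02 over all 9126 tested genes and is a description, since the genes were chosen with earlier results known. In the authors' deposited table, the p-value was under 0.05 for 0 of the 14 member probe sets and for 1.24% of all probe sets, and the lowest of the members was 0.0993 for Myt1. The methods' t-test, recomputed and adjusted over the tested probe sets, also called 0. Leaving out KO 1, the heart lowest in Nefm, raised the Nefm difference to 1.44 (adjusted p = 0.00738 by limma) and that of Sox2 to 1.32 (adjusted p = 0.0337). With quantile normalization as well, these were 1.41 and 1.26 and did not pass (adjusted p = 0.970 for both). Leaving out WT 3 gave 0.998 for Nefm (adjusted p = 0.0357), or 0.977 with quantile normalization (adjusted p = 0.864), and turned the sign for Tubb3, to -0.09, and leaving out KO 4 turned it for Elavl3, to -0.20.

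High signals of the members gathered in 2 of the 8 hearts, KO 3 and KO 4, the KO hearts of title number 541. KO 3 and KO 4 were the 2 highest of the 8 hearts for 5 of the 10 tested member probe sets, namely those of Nefl, Nefm, Elavl3 and Sox2 and 1450258_a_at of Elavl4, against 2.92% of all tested probe sets. This count is a description, since the members were chosen with earlier results known. Sox2 and Elavl3 also met the filter only with KO 3 or KO 4 counted. The number of member probe sets called Present was 11 of 14 in KO 3 and 12 in KO 4, against 9, 5, 7 and 6 in WT 1 to WT 4 and 5 and 8 in KO 1 and KO 2. Over all probe sets the share called Present was 69.6% in KO 3 and 71.6% in KO 4, the highest. It was 68.2%, 65.2%, 70.5% and 67.2% in WT 1 to WT 4 and 66.4% and 70.5% in KO 1 and KO 2. The mean log2 value of the 8 tested genes, each centred on its own mean over the hearts, was 0.54 in KO 3 and 1.002 in KO 4. It was -0.01, -0.30, -0.43 and -0.38 in WT 1 to WT 4, -0.46 in KO 1 and 0.04 in KO 2. WT 3 and WT 4, which bear the same title number as KO 3 and KO 4, were thus among the lowest hearts.

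Inside title number 541, Nefm, Sox2 and Stmn2 were higher in the 2 KO hearts than in the 2 WT hearts. The differences were 2.00 ± 0.33 for Nefm (adjusted p = 2.62e-06), 1.98 ± 0.37 for Sox2 (adjusted p = 4.28e-05) and 1.59 ± 0.39 for Stmn2 (1423281_at, adjusted p = 0.0130), by limma with one mean per genotype and title number. Of all tested probe sets, 0.559% passed this test. Neither WT 3 nor WT 4 was called Present for Sox2, so its WT level there is only a bound. Sox2 met the filter only with KO 3 or KO 4 counted, so it was tested only through the group where it was high. Its p-values inside 541 are descriptions. Nefl differed by 1.07 ± 0.49, Myt1 by 0.99 ± 0.37, Elavl3 by 0.69 ± 0.35 and Tubb3 by 0.59 ± 0.38, and none of these passed. All tested genes together had a median difference of 0.14 here, so the arrays of this pairing were not on one scale. After quantile normalization the differences were 1.95 for Nefm, 1.90 for Sox2 and 1.56 for Stmn2, and none passed (adjusted p = 0.508, 0.346 and 0.570 by limma). As deposited, the fit's prior degrees of freedom were infinite, so that a probe set's own spread between hearts did not enter its test. After quantile normalization or median centring they were finite and none of the 3 passed. As deposited, Nefm and Sox2 also passed with each heart other than WT 2 left out in turn, and without WT 3 they differed by 2.15 and 1.93 (adjusted p = 6.61e-05 and 0.00597). Stmn2 gave 1.87 without WT 3 (adjusted p = 0.0206) and no longer passed without WT 4 (1.304, adjusted p = 0.99997) or KO 4 (1.13, adjusted p = 0.653).

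**Figure D2:**
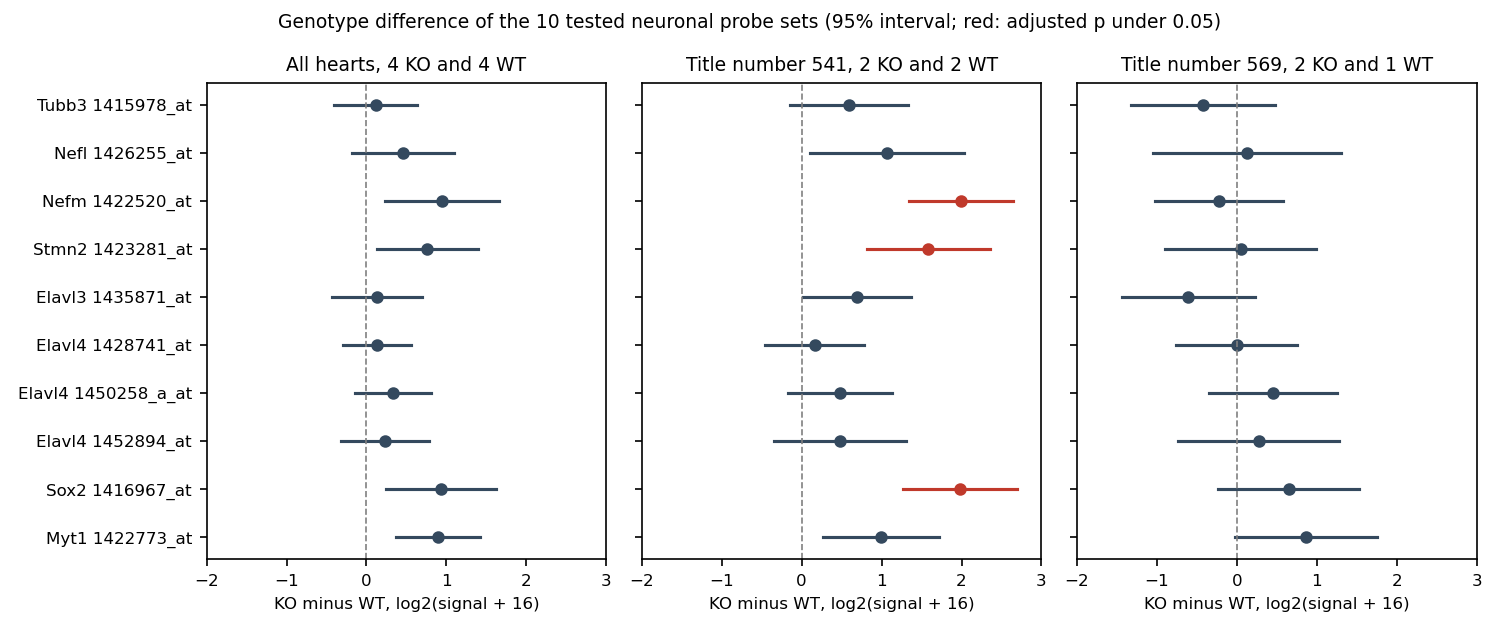
Difference in log2(signal + 16), KO minus WT, with its 95% interval from limma for the 10 tested member probe sets, over all hearts, inside title number 541 and inside 569. Red marks an adjusted p under 0.05: none over all hearts, Nefm, Stmn2 and Sox2 inside 541, and none inside 569, where the single WT heart is assumed to vary like the other hearts. Sox2 met the filter only with KO 3 or KO 4 counted.

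Inside title number 569, where 2 KO hearts stood against WT 2 alone, the differences were -0.22 ± 0.41 for Nefm, 0.65 ± 0.45 for Sox2, 0.87 ± 0.45 for Myt1, 0.05 ± 0.48 for Stmn2, -0.61 ± 0.42 for Elavl3, -0.42 ± 0.46 for Tubb3, 0.13 ± 0.60 for Nefl and -0.0031 to 0.45 for the 3 Elavl4 probe sets. The lone WT heart was assumed to vary like the others. None of the members passed there. The difference between the 2 title numbers was itself tested and passed for Nefm, at 2.22 ± 0.53 (adjusted p = 0.0145 by limma), as for 0.239% of all tested probe sets. It was 1.54 ± 0.62 for Stmn2, 1.34 ± 0.58 for Sox2, 1.303 ± 0.55 for Elavl3, 1.01 ± 0.59 for Tubb3, 0.94 ± 0.78 for Nefl, 0.12 ± 0.58 for Myt1 and 0.03 to 0.21 for the 3 Elavl4 probe sets, none of which passed. Without WT 3 the Nefm value was 2.38 (adjusted p = 0.0121). Nefm no longer passed after quantile normalization (2.16, adjusted p = 0.751), without the intensity trend (adjusted p = 0.331), or without WT 4 (2.07, adjusted p = 0.157), KO 1 (1.81, adjusted p = 0.838) or KO 4 (2.01, adjusted p = 0.0855). The difference was about as large inside 569 as inside 541 for Myt1 (0.87 and 0.99) and for the Elavl4 probe set 1450258_a_at (0.45 and 0.48), and the sign of the Myt1 contrast turned under other settings.

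With both genotypes together, Nefm was also higher in the 541 hearts than in the others. The difference, with genotype in the model, was 1.10 ± 0.23 (adjusted p = 3.08e-04 by limma), and 2.95% of all tested probe sets passed in this comparison. Elavl3 followed with 0.72 ± 0.24 (adjusted p = 0.0777). It was called Present in 541 hearts alone, so it was tested only through the group where it was high. Sox2 differed by 0.40 ± 0.25, Myt1 by 0.36 ± 0.25, Nefl by 0.32 ± 0.30 and Stmn2 by 0.09 ± 0.26, while Tubb3 was lower by -0.42 ± 0.25, and none of these passed. The median was 0.35 over the member genes and -0.06 over all tested genes. This comparison and those inside title numbers share hearts, and the Nefm value rests on KO 3 and KO 4, since WT 3 and WT 4 were at 10.8 and 5.67. Without WT 3 it was 1.25 (adjusted p = 8.81e-04). It did not pass after quantile normalization (1.09, adjusted p = 0.160) or without KO 4 (0.81, adjusted p = 0.0680) or KO 1 (0.72, adjusted p = 0.114). As deposited, this fit too had infinite prior degrees of freedom.

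Other genes of neurons were described by lists, with the same limma fits and adjustment as the members. Of 18 further cytoskeletal and RNA-binding genes on the array, 11 were tested, 0 passed between genotypes, 1 (Stmn3) had an unadjusted p under 0.05 and 7 had a difference above 0 (median 0.09). Stmn3, a stathmin close to Stmn2, read 24.4, 12.3, 15.5 and 14.3 in WT 1 to WT 4 and 9.45, 26.6, 104 and 148 in KO 1 to KO 4, a pattern like that of Nefm. Its difference inside 541 was 2.18 (adjusted p = 1.82e-05 by limma), the only call of the list there, and 2.21 without WT 3 (adjusted p = 0.00192). Like the members' calls, the 15 calls inside 541 among the 85 tested genes of all 10 lists went to 0 after quantile normalization or median centring, as did the 7 calls for the contrast between title numbers, and the 23 calls for title number went to 4 and 5. Without WT 3 the calls for title number went from 23 to 9. Ina, a further neurofilament-type gene, read 3.22, 8.36, 9.36 and 10.4 in WT and 2.62, 7.03, 17.7 and 72.5 in KO. Ina and Stmn3 were among 3 genes of the list that passed as higher in the 541 hearts. The third, Dcx, a microtubule protein of migrating neurons named here after its values were seen, was high in WT 3 (155.6) as well as in KO 3 (102.2) and KO 4 (101.1) and at most 32.7 elsewhere. Without WT 3 its 541 difference was 1.08 (adjusted p = 0.0414), against 1.41 with it, and Stmn3 and Ina passed without WT 3 too but not without KO 1, KO 2 or KO 4. The most abundant members of this list had no peak in KO 3 and KO 4: Dpysl3, a cytoskeletal regulator, ran from 2375 to 4189 and Tubb2b, a beta-tubulin, from 1062 to 2025, with differences of -0.01 for both. Stmn4 and Rbfox3 were never called Present.

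Genes of working synapses passed in none of the comparisons. Of 15 synaptic and secretory vesicle genes, 7 were tested, 5 of these had a difference above 0 (median 0.19), 0 passed in any of the 4 comparisons and 0 had an unadjusted p under 0.05 between genotypes. KO 3 and KO 4 were the 2 highest hearts for 5 of the 15, namely Syt4, Syp, Chgb, Scg2 and Scg3, which were named after their values were seen and of which only Syt4 was tested. The like count was thus 1 of 7 tested genes, against 2.92% of all tested probe sets. The 4 not tested read at most 16.1 in KO 3 and KO 4, within or below the Absent level of 13.7 to 18.03. Syt4, a vesicle protein of the synaptotagmin family, read 25.2 and 22.1 in KO 3 and KO 4 and at most 17.3 elsewhere. Syp, a synaptic vesicle membrane protein, read 14.1 and 16.1 there and at most 7.31 elsewhere. The abundant genes of the list were different: Vamp2, a vesicle fusion protein of many cell types, had its highest signal in WT 1 (652.5) and its lowest in KO 4 (248.6), and Stx1a, its partner on the plasma membrane, ranged from 37.6 to 116. Syn1, Syt1, Chga and Scg3, which define synaptic or dense-core vesicles, were never Present.

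Among genes of neurogenesis, 3 proneural factors were highest in KO 3 and KO 4. Neurog2, which starts neuronal differentiation in progenitors, read 84.3 in KO 3 and 65.9 in KO 4 and at most 9.14 elsewhere. Neurod1, which acts after the neurogenins, read 50.9 and 85.5 there and at most 8.32 elsewhere, and its relative Neurod4 read 22.9 and 34.5 there and at most 12.3 elsewhere. Each was called Present in 2 of 8 hearts, so none of the 3 was tested, and they were named after their values were seen. Of the 16 neural progenitor and neurogenesis genes on the array, 6 were tested, 0 passed in any comparison and 0 had an unadjusted p under 0.05 (median difference between genotypes 0.08). KO 3 and KO 4 were the 2 highest hearts for 3 of the 16 and for 0 of the 6 tested, against 2.92% of all tested probe sets. Nes, an intermediate filament of progenitors that other embryonic cells share, read 223.4 in KO 3 but 122.5 in KO 4. Sox3, the closest relative of Sox2 in this list, had its highest signal in KO 2 (23.04) and read 12.2 and 3.52 in KO 3 and KO 4. Sox1, Olig2, Dll3, Neurog1 and Pax7 were never Present.

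Of 17 autonomic and sensory neuron genes on the array, 8 were tested, 6 had a difference above 0 (median 0.27), and 0 passed between genotypes or had an unadjusted p under 0.05. Isl1, a homeodomain factor of sensory and sympathetic neurons and also of the second heart field, read 1686, 663.0, 547.4 and 218.3 in WT 1 to WT 4 and 234.9, 1358, 1689 and 1340 in KO 1 to KO 4. It was lowest in WT 4 and KO 1, as Stmn2 was, and its difference inside 541 was 2.06 (adjusted p = 0.00354 by limma), 2.70 without WT 3 (adjusted p = 0.00516) and no longer called without WT 4 (1.43), KO 3 (1.90) or KO 4 (2.23). Th, the first enzyme of catecholamine synthesis, was never Present, nor were Slc18a3, Gfra3, Insm1 and Tlx3, whereas Ddc, the next enzyme in that path, was Present in 8 of 8 hearts at 163.2 to 574.5. Of 13 axon guidance and adhesion genes, 8 were tested and 0 passed between genotypes (median 0.25), with Slit2, a secreted repellent, at 0.64 and an unadjusted p of 0.0218. Nrcam, an adhesion protein of axons, read 30.8 in KO 3 and 20.5 in KO 4 and at most 13.9 elsewhere. Other genes, named after their values were seen, peaked in WT 3. Epha3 of the guidance list read 407.1 in WT 3, 320.7 in KO 3, 246.9 in KO 4 and at most 71.1 elsewhere. Ntrk3 of the autonomic and sensory list read 82.9, 54.7 and 38.2 in these hearts and at most 21.02 elsewhere.

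None of the repressors of neuronal genes passed a test. Rest was Present in 8 of 8 hearts at 156 to 286, with a WT mean of 207 ± 52.0 and a KO mean of 218 ± 57.8 (SD, 4 hearts each). All 10 repressor genes were tested, 6 had a difference above 0 between genotypes (median 0.02), and 0 passed in any of the 4 comparisons or had an unadjusted p under 0.05. Rcor1 and Rcor2, the corepressors of Rest, differed by -0.12 and 0.24, and the histone demethylase Kdm1a by -0.02.

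Branchial arch markers summed highest in KO 3 and KO 4 too, but next in WT 3, where the centred mean of the tested members was low (-0.43). Other listed neuronal genes varied: Dcx, Gap43 and Msi1 were highest in WT 3, and others in KO 3 and KO 4. The part of the arch markers in the neuronal signals was not tested. Of 11 branchial arch genes on the array, 5 were tested, all 5 had a difference above 0 between genotypes (median 0.68), 0 passed and 1 (Dlx2) had an unadjusted p under 0.05. Their summed signal was 2848 in KO 3 and 2167 in KO 4, 1573 in WT 3, and 332 to 908 in the other hearts. Prrx1, a factor of arch and limb mesenchyme, read 1063 in KO 3, 830.5 in KO 4, 588.1 in WT 3 and 11.5 to 160.8 elsewhere. Dlx2, a patterning factor of the arches that neural crest and forebrain neurons share, read 449.2 and 419.9 in KO 3 and KO 4 and 7.90 to 150.4 elsewhere, and its difference inside 541 was 3.06 (adjusted p = 7.58e-07 by limma), 4.24 without WT 3 (adjusted p = 3.51e-08) and no longer called without WT 4 (1.88, adjusted p = 0.664). Dlx2, Msx1 and Prrx1 passed inside 541. WT 4 was far below WT 3 for Msx1 (2.92 against 58.5) and for Prrx1 (11.5 against 588.1), so these differences lean on WT 4. KO 3 and KO 4 were the 2 highest hearts for 6 of the 11 genes, 3 of them not tested. The like count was thus 3 of 5 tested genes, against 2.92% of all tested probe sets. Dlx6 and Alx4 were never Present.

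Neural crest genes differed among themselves. Of 13 genes on the array, 10 were tested, 8 had a difference above 0 between genotypes (median 0.39), and 0 passed or had an unadjusted p under 0.05. In the other comparisons 4 passed as higher in the 541 hearts, 3 inside 541 (Tfap2a 2.28, Tfap2b 1.47 and Crabp1 2.51) and 2 in the contrast between title numbers (Tfap2a and Crabp1). Of all tested probe sets, 2.95%, 0.559% and 0.239% passed in these comparisons. Tfap2b was called Present in only 3 of 8 hearts, the fewest that the filter allows, and was highest in KO 3 and KO 4. The summed signal was 3543 in KO 3, 2693 in KO 4, 2689 in WT 3 and 1042 to 1767 in the others, and much of it was Crabp1, a binding protein of retinoic acid, at 1283 in WT 3, 1163 in KO 3, 1074 in KO 4 and at most 156 elsewhere. Without Crabp1 the sum was 2381 in KO 3, 1619 in KO 4, 1406 in WT 3 and 1009 to 1649 in the others, so only KO 3 stood above the rest. Ednrb, an endothelin receptor of neural crest, was lowest in KO 4 (55.3) and KO 3 (86.95). Tfap2a, a factor of neural crest and ectoderm, read 240.6 in KO 3, 214.0 in KO 4, 98.1 in WT 3 and 5.94 to 53.1 elsewhere. Tfap2b, its relative, which sympathetic neurons also use, read 50.5 and 43.5 in KO 3 and KO 4 and at most 13.9 elsewhere. Pax3, named after its values were seen, read 203.6 in WT 3, 146.8 in KO 3, 87.2 in KO 4 and at most 22.1 elsewhere. Without WT 4 the differences of all 3 called genes inside 541 did not pass (1.09 for Tfap2a, 1.08 for Tfap2b and -0.20 for Crabp1), and without WT 3 they did (3.47, 1.86 and 5.21). WT 3 had signals of Crabp1, Prrx1 and Tfap2a without high signals of most members: Nefm was at 10.8 there, Sox2 at 6.599 and Stmn2 (1423281_at) at 18.98. Foxd3 and S100b were never Present.

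Within the endoderm and liver list, Afp was high in WT 3 alone, and the epithelial adhesion genes Cdh1 and Epcam were highest in KO 3 and KO 4. The summed signal was 8867 in WT 3, 1951 in KO 3, 1524 in KO 4 and 687 to 1211 in the others, and 10 of 12 were tested with a median genotype difference of 0.04, 0 calls and 1 unadjusted p under 0.05 (Apoa1, lower in KO). Cdh1, the epithelial cadherin, read 277 in KO 3, 207 in KO 4, 153 in WT 3 and 4.50 to 79.5 elsewhere, and Epcam, an adhesion protein of epithelia, read 183 in both KO hearts, 113 in WT 3 and 8.26 to 44.9 elsewhere. They differed inside 541 by 2.12 and 1.78 (adjusted p = 0.00299 and 0.0106 by limma), by 3.64 and 2.94 without WT 3, and did not pass without WT 4 (0.60 and 0.63) or KO 3 (1.92 and 1.78), nor Epcam without KO 4 (1.78). Foxa1, a factor of gut and other endoderm, read 157 in KO 3, 129 in WT 3, 97.1 in KO 4 and at most 41.1 elsewhere, and Foxa2, its relative, 29.2, 28.97 and 17.8 in these hearts and at most 5.32 elsewhere. Cdh1, Epcam, Foxa1 and Foxa2 were named after their values were seen. Afp read 3396 in WT 3 and at most 29.1 elsewhere, KO 3 (9.11) and KO 4 (6.90) included. Inside 541, 2 genes of the list passed as higher in KO, Cdh1 and Epcam, and 4 as lower. The 4 were Afp (-4.03), Hnf4a (-2.90), Apoa1 (-1.61) and Ttr (-2.63, named after its values were seen), each highest in WT 3. Of all tested probe sets, 0.559% passed there. The keratin genes Krt8 and Krt18, which mark simple epithelia, read 553.8 and 699.9 in KO 3, and the highest other hearts were WT 2 for Krt8 (435.7) and WT 3 for Krt18 (699.1). The summed signal of 10 cardiomyocyte genes was lowest in WT 3 (21943) and KO 4 (24160) and 35930 to 45261 in the other hearts. KO 4, the heart with the highest mean value of the members, thus also had the lowest signal for Myh6 (2029), the alpha myosin heavy chain, and for Myl7 (3967), an atrial light chain, while KO 3 did not stand apart in either (4017 and 5818).

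**Figure D3:**
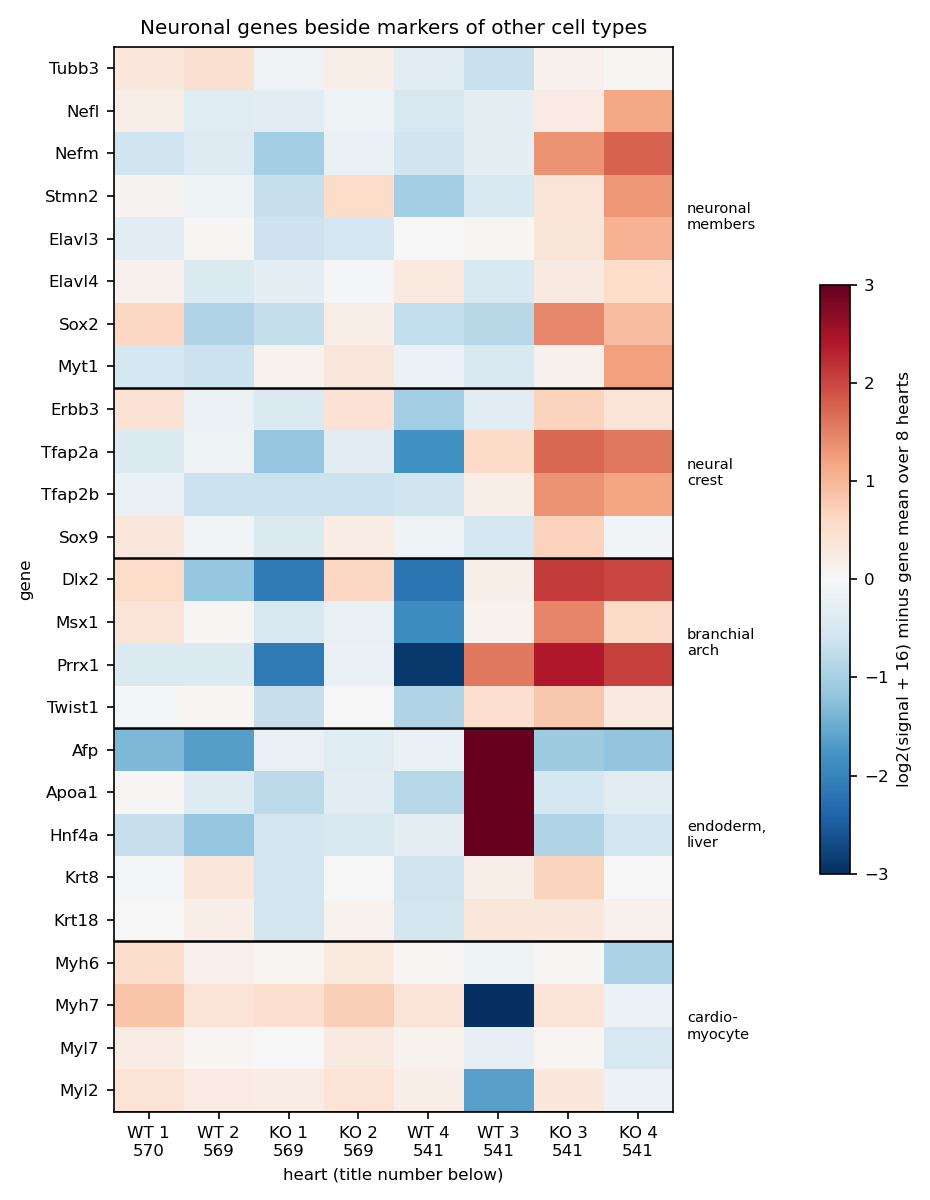
Centred log2(signal + 16) per gene (colour, limited to 3 either way) in the 8 hearts (columns, with their title numbers), for the 8 tested neuronal genes and the rule-named markers of neural crest, branchial arch, endoderm and liver, and heart muscle. Nefm, Stmn2, Elavl3 and Sox2 are high in KO 3 and KO 4 with Dlx2, Tfap2a and Prrx1, whereas WT 3 is high for Prrx1 and the liver genes and not for the 8 neuronal genes shown.

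The genes most like the members were sought by the root mean square difference, over the 8 hearts, between a gene's centred log2 profile and the mean profile of the 8 tested members. The 8 nearest of all other tested genes were Lypd1 (0.22), Hesx1 (0.23), Cdkn2b (0.23), Fhdc1 (0.24), Pcp4 (0.25), Magel2 (0.25), Lama1 (0.26) and Elavl2 (0.26), where the median distance of all tested genes was 0.55. Elavl2 (HuB) is the third neuronal gene of the Elavl family on these lists and read 128, 93.3, 136 and 72.5 in WT 1 to WT 4 and 72.8, 113, 169 and 206 in KO 1 to KO 4. It was Present in every heart and highest in KO 3 and KO 4. Pcp4, a calmodulin-binding protein of neurons, read 62.9 and 53.5 in KO 3 and KO 4 and 7.87 to 19.2 elsewhere. Hesx1, a homeobox repressor of the forebrain and pituitary, read 32.9 and 28.2 in KO 3 and KO 4, 19.7 in KO 2 and at most 8.09 elsewhere. Among the members, Nefl lay nearest to the shared profile (0.17), and Nefm (0.50), Sox2 (0.50) and Tubb3 (0.50) lay farthest. Nefm and Sox2 spread over 2.78 and 2.35 log2 units between their lowest and highest heart, Tubb3 over 1.13, with WT 1 and WT 2 highest.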

How the data were processed

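The members and the gene lists were chosen with earlier results of these data known. The authors deposited linear intensity values, called MAS5 signals in the file headers. Which MAS5 version and scaling target made them, and a genome build, are not given in the sources used here. For each probe set the authors also deposited a p-value for the genotypes, and their deposited fold is a signed score (a ratio of WT to KO with a minus sign for higher KO values), per the file headers. Per the file headers, a deposited quality table holds each array's fraction of Present calls, and the detection calls stand beside the deposited signals. Arrays have no read depth, so the number of hearts limits the precision.

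Names of probe sets came from the platform annotation (20393 had 1 symbol, 691 several and 1606 none), and gene order and promoter sequence came from RefSeq tables of GRCm38.p6. Probe sets Present in at least 3 of 8 arrays, without 64 control probe sets, were tested with limma (version 3.58.1, R 4.3.3; eBayes with the trend option) on unscaled log2(signal + 16) values. P-values were Benjamini-Hochberg adjusted over 16292 probe sets, and a call is an adjusted p under 0.05. The comparisons were KO minus WT, title number 541 minus the others with genotype as a covariate, and the genotype difference in 541 minus that in 569, from means per genotype and title number. A gene took its tested probe set of highest mean log2 signal. Replicate numbers follow the sample order and pair no hearts, so title number served as the block.

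Named genes were all members, from each list the 3 tested genes of smallest genotype p and the 2 of highest signal, the 8 genes nearest to the members, Dbh, Rest and 4 heart genes. Others (such as Dcx, Crabp1, the proneural factors, the epithelial genes and genes named as never Present) were named after their values were seen. Alternatives were scaling, pseudocount, filter, trend, single hearts left out, the block, hearts of 541 alone, the methods' t-test and an exact permutation test. The genotype fit of 4 against 4 hearts was tested on simulated data, and the other fits were not.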

Additional observations from a re-analysis of the deposited data

Results flagged for a closer look

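Sox2 in WT 1 read 46.6, while the other 3 WT hearts read 5.49 to 8.19. On the log2 scale its gap to the next WT heart was 0.89 of the range of the group, above Dixon's critical value for 4 samples. It was the only one of 20 groups of 4 hearts tested in this way that passed, and chance flags about 1 in 20. WT 1 is the only heart with the title number 570.

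The genotype difference of Nefm differed between title numbers 541 and 569 by 2.22 on the log2 scale, by limma's test of the difference itself. It rests on a single WT heart in 569 and on KO 1, whose Nefm signal of 0.157 was called Absent.

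Of the member probe sets that were not tested, the Stmn2 probe set 1423280_at reached 34.7 in KO 4 and was called Present in KO 3 and KO 4 only, and Phox2a reached 15.7 in KO 4, its only Present call. Neither was called Present in a WT heart.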

How the results depend on the processing

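Calls depended on how the arrays were scaled and on single hearts, and the causes were not tested. Between genotypes, 0 probe sets passed as deposited, 40 with title number as a block (27 higher in KO), 60 inside title number 541, and 0 to 72 when single hearts were left out (72 without WT 3, 30 without KO 1). Quantile normalization with the block gave 0, and so did quantile normalization without WT 3 or KO 1, added after seeing the data. Prior degrees of freedom were infinite in the fits with the block, without WT 3 and inside 541. They were also infinite as deposited for title number and for the difference between title numbers. The sign turned for Tubb3 without WT 3 (range -0.093 to 0.28 over single hearts left out, and -0.14 with quantile normalization) and for Elavl3 without KO 4 (range -0.20 to 0.36). Myt1, which met the filter only with KO hearts counted, was the only member with an exact permutation p of 0.0286. Between title numbers, 480 passed as deposited, 155 with no filter on detection calls, and 130 (without WT 3) to 776 (without WT 4) with single hearts left out. Stmn2 turned to -0.0032 with a pseudocount of 1 and ranged from -0.32 to 0.37 with single hearts left out. Nefm ranged from 0.72 to 1.37 then, and its adjusted p by limma was 0.114 after median centring and 0.0647 with no filter. Elavl3, called Present in 541 hearts alone, passed without WT 2 or WT 4, and Sox2 passed without WT 1. Sox2 met the filter only with KO 3 or KO 4 counted. For the difference between title numbers, 39 passed as deposited, 0 after quantile normalization or median centring, 75 with no filter, and 18 (without KO 1) to 82 (without WT 3) with single hearts left out, an alternative added after seeing the data. Myt1 gave -0.028 after quantile normalization, -0.092 with a pseudocount of 1 and -0.43 to 0.66 with single hearts left out, and Elavl4 ranged from -0.17 to 0.58. Of 161, 113 and 105 values of the member genes under the alternatives, 149, 102 and 94 kept both their sign and their side of the threshold. Signals of several members, among them Nefm, Phox2a and the Elavl4 probe set 1428741_at, lay in many hearts within or below the Absent level of 13.7 to 18.03, which limits their precision. No paired analysis was possible because the replicate numbers only follow the sample order.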
